A study of Homo sapiens with 24 samples.

Results

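The J-domain co-chaperones examined here were the genes whose symbol is DNAJA, DNAJB or DNAJC followed by a number, taken from the deposited count tables, with DNAJB1 and DNAJB9 left out. The rule took 41 of the 60658 genes, namely 4 of class A, 11 of class B and 26 of class C. It used symbols alone and no measured value.

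Poly(A) RNA was sequenced from cells labelled SH-SY5Y, a human neuroblastoma cell line, in 24 libraries. The study depleted the circular RNA ciRS-7 (knockdown, KD) in 4 ways, each beside its own non-targeting control (NTC), with 3 libraries per group. Cells were harvested 48 h after transfection in every group. In the agoshRNA setup, KD and NTC cells received a vector expressing a hairpin and no CasRx, the RNA-guided RNA nuclease. In the gRNA and pre-gRNA setups both arms received a plasmid encoding CasRx with GFP together with a plasmid expressing a mature or a precursor guide. A synthetic guide was used in the syn-gRNA setup, and how it was delivered is not described in the labels. Setup, delivery and the handling of each set of 6 libraries cannot be told apart. The labels do not say whether the 3 libraries of a group came from separate cultures, so p-values measure the spread between these libraries, which may be technical.

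J-domain proteins are the partners of HSP70 chaperones. Their J domain stimulates the ATPase of HSP70 and so hands it a client protein, and nucleotide exchange factors then release the client. Class A members share the layout of bacterial DnaJ with a zinc-finger region, class B members lack the zinc finger and carry a glycine- and phenylalanine-rich stretch, and class C members share only the J domain, which sits in proteins with specialised places of work such as the endoplasmic reticulum, the mitochondrial inner membrane, endosomes, ribosomes and the spliceosome. Several class A and B members are known targets of the heat-shock factor HSF1, which binds repeats of the pentamer NGAAN.

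The promoter windows of the members were searched for a heat-shock element of 3 units. The search was chosen after class A and B members, and also a class C member, were seen to differ between setups. Windows ran from 250 bases before to 50 bases after each RefSeq start on GRCh38.p14, and 37 of the 41 members had at least 1. The motif GAANNTTCNNGAA, on either strand, was found in 2 of 47 member windows (DNAJA1 and DNAJB6) and in 172 of all 35116 windows (0.49%). Their sequences are given 5′ to 3′ with the match in capitals. In DNAJB6 the match lies 131 to 119 bases before the start (chr7:157336813-157336945, plus strand), and in DNAJA1 it lies at bases 4 to 16 after it (chr9:33025259-33025288, plus strand).
DNAJB6: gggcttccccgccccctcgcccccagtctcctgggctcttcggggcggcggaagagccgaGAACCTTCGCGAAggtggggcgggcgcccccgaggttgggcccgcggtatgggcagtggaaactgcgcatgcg
DNAJA1: ctgcggcgcgccgggcgGAACTTTCCAGAA
The shorter motif GAANNTTC stood in 5 of 47 member windows (DNAJA1, DNAJA4, DNAJB6, DNAJB7 and DNAJC6) and in 6.769% of all windows. The motif TTCNNGAA stood in 4 of 47 member windows (DNAJA1, DNAJB4, DNAJB6 and DNAJC15) and in 7.737% of all windows. Both shorter motifs lie within the longer one and therefore overlap it. A match describes letters only and is not a measured binding site.

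Total counts per library ranged from 10994974 to 16233777, so that 3 counts correspond to 0.185 to 0.273 counts per 1000000 (CPM). The depleted RNA itself is not measured by poly(A) selection. At its locus, LINC00632 held 16 to 132 counts per library, CDR1-AS 0 to 16 and CDR1 0 to 26. Of the 7 noradrenergic neuroblastoma markers listed, 4 averaged at least 10 CPM, namely GATA2 at 35.7, TBX2 at 22.0, HAND1 at 21.4 and CHRNA3 at 13.0. PHOX2A held 0 to 5 counts, STMN2 0 to 3 and ELAVL4 0 to 2. Of 5 kidney-lineage markers 4 (HOXA9, HOXA10, HOXA11 and PAX2) reached that average, and PAX8 held 0 to 1 counts. The summed level of the kidney-lineage list was 126.21 to 269.0 CPM in agoshRNA, 255.23 to 326.78 in gRNA, 187.62 to 317.83 in pre-gRNA and 205.67 to 238.86 in syn-gRNA. That of the noradrenergic list was 58.59 to 134.05 CPM in agoshRNA, 76.28 to 118.16 in gRNA, 84.89 to 108.48 in pre-gRNA and 77.58 to 88.63 in syn-gRNA. Several markers of the labelled cell type were thus near 0 while others were expressed. The part of cell identity in the results that follow was not tested.

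Most of the family was expressed. Of the 41 members, 39 had at least 10 counts in at least 3 libraries (4 of class A, 9 of class B and 26 of class C), and 35 reached 10 counts in all 24 libraries. DNAJB3 had 0 counts in every library, which allows up to 3 counts by sampling alone, and DNAJB8 had 0 to 3. The low end also held DNAJC15 with 1 to 14 counts, DNAJA4 with 2 to 21, DNAJB13 with 4 to 24, DNAJC28 with 5 to 42 and DNAJB7 with 11 to 70. Apart from DNAJC28, which a rule on p-values named, these low genes were picked out with their values in view.

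On the scale of CPM per kb of exon, which allows levels of different genes to be compared, class C supplied most of the RNA of the 41 members. The summed level of class C averaged 227 (range over libraries 186 to 255), or 66.8% of all members. Class A supplied 21.0% from its few genes, with a sum of 72.3 (48.0 to 107), and class B 12.2%, with a sum of 41.4 (34.1 to 56.3). DNAJB1, a class B gene left out by the rule, averaged 52.9 CPM per kb, above that class B sum, and DNAJB9 averaged 7.81. The shares and the order of classes A and B therefore hold only for the members under the rule. The median member stood at 14.8 CPM per kb in class A, 2.66 in class B and 5.04 in class C. These sums count union exons of the annotation, which are long for some genes (21.8 kb for DNAJC10 and 15.0 kb for DNAJB6) and lower their values.

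DNAJC8, a nuclear member associated with the spliceosome, was highest at 73.2 CPM per kb, and its level in CPM ranged from 162 to 273, or 1.69-fold, over all libraries. DNAJA1, a cytosolic farnesylated partner of HSC70, came next at 42.6 CPM per kb (20.3 to 78.1). DNAJC9, a chaperone of histones H3 and H4, stood at 18.5, and the mitochondrial DNAJA3 at 15.4. DNAJC7, which binds both HSP70 and HSP90 through its TPR repeats, stood at 14.9 and the cytosolic DNAJA2 at 14.2. The ranges of these last 4 overlapped over the libraries, so their order is not fixed by the data. The place of DNAJA1 rests on its mean as well. Its range overlapped those of DNAJC8 (56.1 to 94.6), DNAJC9 (11.9 to 25.2), DNAJA3 (9.44 to 25.4) and DNAJC7 (8.21 to 21.1). In agoshRNA KD library A, DNAJA1 stood at 22.8 CPM per kb and DNAJA3 at 25.4. In class B the highest were DNAJB11, the BiP partner ERdj3, at 11.1, DNAJB6, a suppressor of polyglutamine aggregation, at 8.66 and DNAJB2, which carries ubiquitin-interacting motifs, at 6.16. DNAJB5, a close relative of DNAJB1, was lower at 2.66. Reads of 28 of the 41 members come from spans that overlap another annotated gene, and the libraries do not keep strand, so that reads from DNAJC9 and from DNAJC9-AS1, for example, cannot be told apart. DNAJB6, DNAJB5, DNAJA1 and DNAJA2 have no such overlap.

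**Figure D1:**
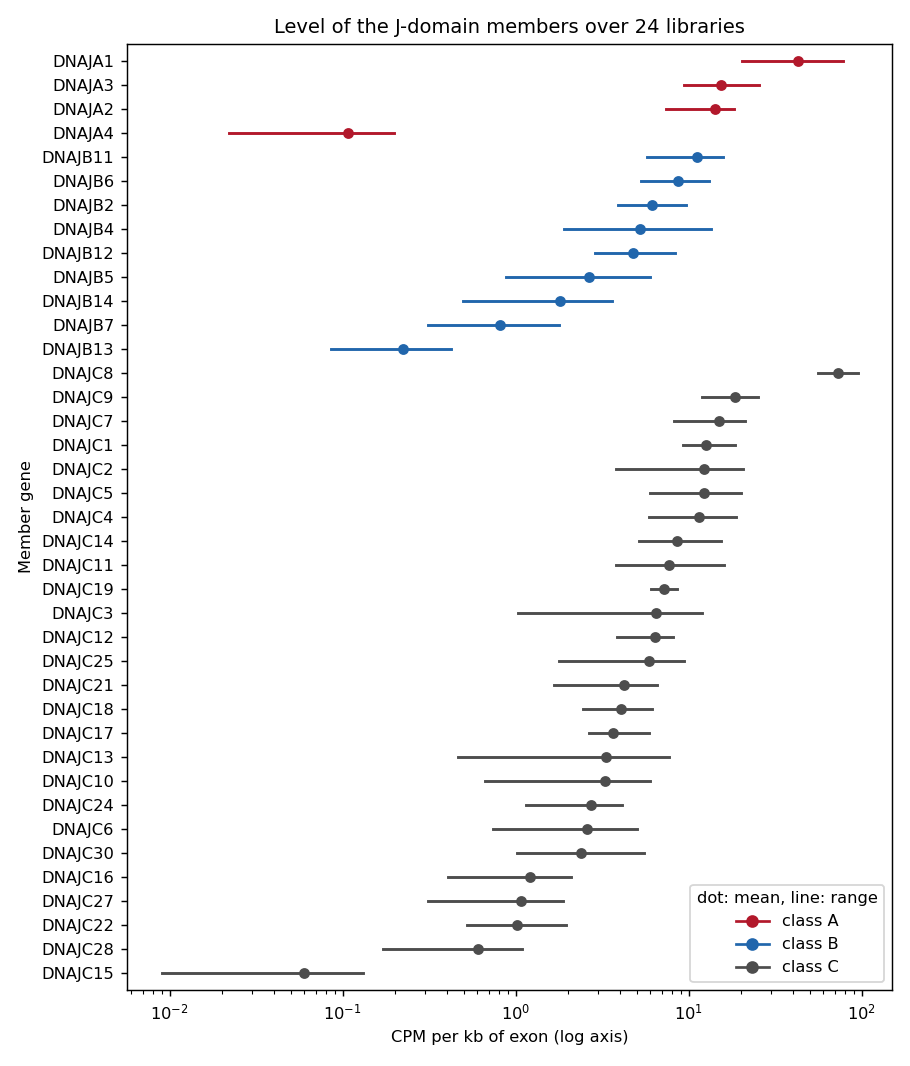
Mean level (dot) and range over the 24 libraries (line) of the members with at least 10 counts in at least 3 libraries, in CPM per kb of exon on a log axis, coloured by class. DNAJC8 and DNAJA1 lead at 73.2 and 42.6, and the lowest members lie below 1.

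No member passed the test for KD against NTC in any of the 4 setups, by DESeq2 at a Benjamini-Hochberg adjusted p under 0.05. Members tested numbered 36 in agoshRNA, 37 in gRNA, 38 in pre-gRNA and 39 in syn-gRNA. The background was also empty, since DESeq2 called 0 of 17802, 18371, 18717 and 18513 genes (0% in each). At an unadjusted p under 0.05, 0 members were found in each setup, against 0, 17 (0.0925%), 2 (0.0107%) and 55 (0.297%) genes. edgeR called 0 members as well. The directions were mixed: 19 of 36 members were higher in KD cells in agoshRNA, 20 of 37 in gRNA, 24 of 38 in pre-gRNA and 20 of 39 in syn-gRNA. The median log2 difference of the members was 0.01, 0.04, 0.04 and 0.01 in that order, beside 0.06, 0.02, 0.01 and 0.00 over all genes tested.

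How small a change could have been seen differed between setups. The median standard error of a member's log2 difference was 0.52 in agoshRNA, 0.41 in gRNA, 0.44 in pre-gRNA and 0.17 in syn-gRNA. For DNAJC8 the 95% interval of the KD effect ran from -0.26 to 0.23 in syn-gRNA but from -0.83 to 0.53 in agoshRNA. For DNAJA1 it ran from -0.35 to 0.17 in syn-gRNA and from -1.32 to 1.17 in agoshRNA. These intervals come from the fit without the column letter. With the letter as a replicate block the agoshRNA interval of DNAJA1 narrowed to -0.50 to 0.17, and that of syn-gRNA to -0.28 to 0.10.

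The members with the smallest p-values show what lay nearest to a difference. In syn-gRNA, DNAJC2, the ribosome-bound member also called MPP11, had 107, 92.2 and 107 CPM in KD libraries A, B and C and 94.7, 85.2 and 85.2 CPM in NTC libraries. The 2 groups overlapped through KD library B, and the log2 difference was 0.20 (SE 0.13, unadjusted p = 0.111 by DESeq2, adjusted p = 1). DNAJC10, the reductase ERdj5 of the endoplasmic reticulum, had 87.2, 79.6 and 100 CPM in KD and 79.0, 74.6 and 74.9 in NTC. All KD values of DNAJC10 lay above all NTC values, with a log2 difference of 0.22 (SE 0.14, unadjusted p = 0.118 by DESeq2). DNAJC22, chosen after its values were seen, was the other member whose syn-gRNA groups did not overlap, at 3.92, 4.66 and 3.91 CPM in KD against 3.35, 2.62 and 3.09 in NTC. Among all genes 2.65% stood above in this way in syn-gRNA, 2.23% below and 4.88% in either direction.

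In pre-gRNA the low-level gene DNAJC28 had 2.69, 1.37 and 2.7 CPM in KD and 1.48, 0.814 and 1.67 in NTC, which overlapped, with a log2 difference of 0.74 (SE 0.49, unadjusted p = 0.134 by DESeq2). DNAJC11, a mitochondrial protein associated with the MICOS complex, had 55.2, 39.9 and 36.0 CPM in KD and 68.7, 43.8 and 35.7 in NTC (log2 difference -0.21, SE 0.40). In both arms library A was the highest and library C the lowest.

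In gRNA, DNAJC4 had 46.0, 32.5 and 28.8 CPM in KD and 33.2, 32.9 and 21.9 in NTC (log2 difference 0.40, SE 0.38), and DNAJC16, a protein of the endoplasmic reticulum, had 6.92, 8.53 and 16.2 against 17.5, 10.4 and 14.5 (-0.34, SE 0.41). Both pairs of groups overlapped. The 1 member whose gRNA groups did not overlap was DNAJB6, lower in KD at 89.8, 101 and 94.0 CPM against 126, 113 and 101, where the nearest libraries nearly touched. Its log2 difference was -0.15 (SE 0.29, unadjusted p = 0.596 by DESeq2), and 1.83% of all genes stood below in this way, 0.474% above and 2.3% in either direction.

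In agoshRNA, DNAJB2 had 45.8, 34.3 and 52.6 CPM in KD and 39.8, 30.4 and 37.1 in NTC (log2 difference 0.34, SE 0.33). DNAJC18, a membrane protein of the endoplasmic reticulum, had 20.3, 35.4 and 21.4 against 28.4, 40.0 and 32.0 (-0.35, SE 0.46). Each KD library of DNAJC18 was below the NTC library of its letter, while the groups overlapped. In agoshRNA and in pre-gRNA 0 members had groups that did not overlap, beside 0.871% and 1.13% of all genes.

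The class medians of the log2 difference lay between -0.08 and 0.07 for class A, between -0.08 and 0.12 for class B and between -0.01 and 0.04 for class C over the 4 setups, and single members ranged from -0.47 to 0.74. The difference of the KD effect between setups was tested for the 6 pairs in a DESeq2 model of all 24 libraries. It left out the column letter and called 0 members and 0 genes in each pair. At an unadjusted p under 0.05 it found 0 members. Genes at that p made up 0.149% for agoshRNA against gRNA, 0.154% for agoshRNA against pre-gRNA, 0.144% for agoshRNA against syn-gRNA, 0.178% for gRNA against pre-gRNA, 0.223% for gRNA against syn-gRNA and 0.144% for pre-gRNA against syn-gRNA. The authors' deposited log2 fold changes cover 40 members, without the count filter used here. They ran from -1.03 to 0.89 in agoshRNA, -0.64 to 1.08 in gRNA, -0.23 to 0.74 in pre-gRNA and -0.69 to 0.49 in syn-gRNA. Several of these ends belong to low genes: -1.03 to DNAJC15, 0.89 to DNAJB13, -0.64 to DNAJA4, and 1.08 and -0.69 to DNAJB8. The smallest of the authors' p-values for a member, from their DESeq2 results, was 0.084.

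**Figure D2:**
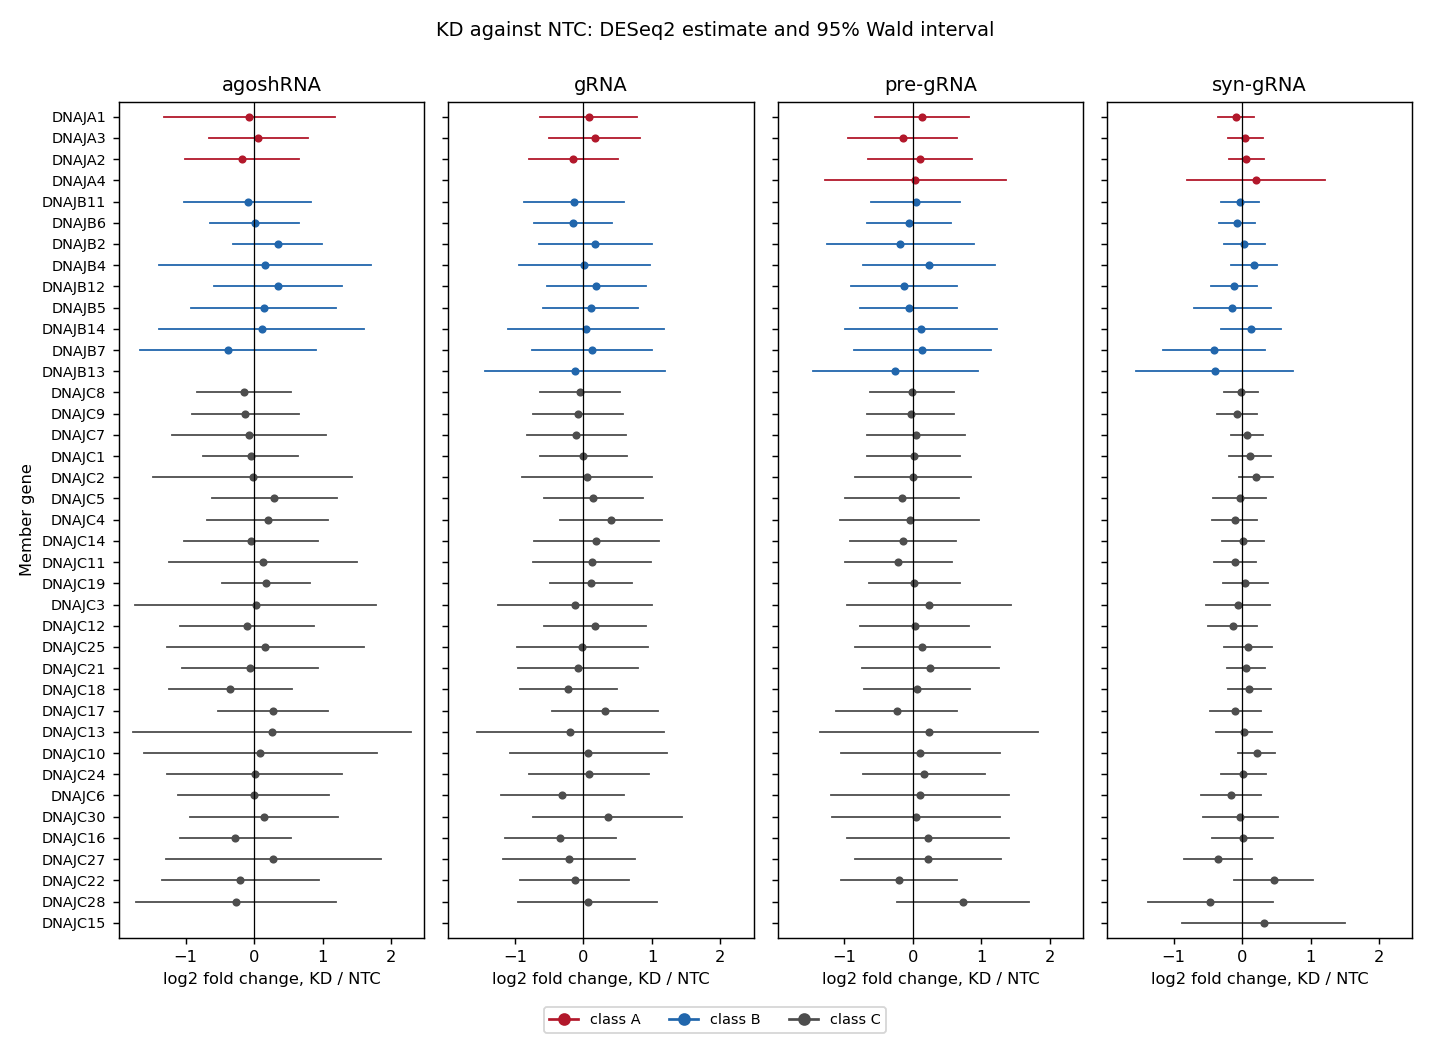
DESeq2 log2 fold change of KD against NTC (dot) with its 95% Wald interval (line) for every tested member, 1 panel per setup, coloured by class. Every interval crosses 0, and intervals are narrowest in syn-gRNA, where the median standard error was 0.17.

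Between setups a few members did pass the test. Each arm was compared between setups in the 24-library DESeq2 model over 20172 genes, of which 39 were members, and comparisons that share a setup share its libraries. DNAJB6, DNAJB5, DNAJC1 and DNAJA3 were the members that passed the test in at least 1 of these 12 comparisons. KD and NTC libraries of the same column letter deviated together, so the second arm of a setup is not an independent reading of the first.

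DNAJB6 was highest in the agoshRNA setup. Its gene lies on hg19 chromosome 7 from 157128075 to 157210133, and its promoter window holds the motif match shown above, which is not a measured binding site. DNAJB5, DNAJC1 and DNAJA3, the other members called between setups, were not among the members with any of the motifs searched. The part of the motif in the differences between setups was not tested. In agoshRNA it had 162, 196 and 152 CPM in KD libraries A, B and C and 167, 174 and 178 CPM in NTC libraries. In gRNA the values were 89.8, 101 and 94.0 in KD and 126, 113 and 101 in NTC. In pre-gRNA they were 119, 79.5 and 102 in KD and 121, 80.5 and 103 in NTC. All 6 agoshRNA libraries lay above all 12 libraries of the gRNA and pre-gRNA setups. In syn-gRNA, DNAJB6 had 139, 126 and 152 CPM in KD and 144, 147 and 146 in NTC, values that reached into the agoshRNA range in 1 KD library.

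Against gRNA, DNAJB6 was higher in agoshRNA by 0.75 on the log2 scale in the NTC arm (SE 0.16, adjusted p = 0.0152 by DESeq2) and by 0.91 in the KD arm (SE 0.16, adjusted p = 0.000176). It was the 1 member called in either arm, beside 0.0496% of all genes in NTC and 0.0446% in KD. Against pre-gRNA it was higher by 0.81 in NTC (SE 0.16, adjusted p = 0.00384 by DESeq2) and 0.87 in KD (SE 0.16, adjusted p = 0.000675). It was again the 1 member called, beside 0.0347% of genes in NTC and 0.0446% in KD. Against syn-gRNA the difference of 0.24 in NTC and 0.31 in KD did not pass (adjusted p = 0.635 and 0.352 by DESeq2).

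The DNAJB6 calls depended on how the spread was estimated. With edgeR the adjusted p was 0.894 and 0.208 against gRNA and 0.538 and 0.275 against pre-gRNA, NTC first, and with only the libraries compared in the DESeq2 fit it was 0.9999 or above against gRNA and at least 0.9997 against pre-gRNA. With the arms summed by letter it was 0.128 against gRNA and 0.147 against pre-gRNA by DESeq2. Leaving out any 1 library kept the KD call against gRNA (adjusted p 5.57e-05 to 0.0330 by DESeq2). The KD call against pre-gRNA was lost without agoshRNA KD library B alone (adjusted p = 0.0530). In NTC the call against gRNA was kept without agoshRNA library A and lost without any other library compared, agoshRNA B and C or gRNA A, B and C (adjusted p 0.0636 to 0.461). The NTC call against pre-gRNA was lost without agoshRNA library B or C or pre-gRNA library B or C (adjusted p 0.0630 to 0.234).

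DNAJB6 was also lower in the plasmid-guide setups than in syn-gRNA. In KD cells it was lower in gRNA by -0.60 on the log2 scale (SE 0.17, adjusted p = 0.0282 by DESeq2) and in pre-gRNA by -0.56 (SE 0.16, adjusted p = 0.0355). In NTC cells the pre-gRNA difference of -0.57 passed (SE 0.16, adjusted p = 0.0274 by DESeq2), while the gRNA difference of -0.51 did not (adjusted p = 0.0903). Here the background was wider, with 1.58% of genes called between gRNA and syn-gRNA in KD, 1.32% in NTC, and 2.52% in KD and 3.25% in NTC between pre-gRNA and syn-gRNA. These calls were lost with edgeR (adjusted p = 0.179, 0.188 and 0.146 in the order given), with only the libraries compared (0.309, 0.360 and 0.195 by DESeq2) and with the arms summed by letter (0.249 for gRNA and 0.177 for pre-gRNA by DESeq2). Leaving out any of the libraries compared ended them, except gRNA KD library B for the gRNA call (adjusted p = 0.0370) and syn-gRNA NTC library A for the pre-gRNA call in NTC (adjusted p = 0.0448). Without a library whose loss ended a call, adjusted p by DESeq2 rose to 0.0834 to 0.303 for gRNA in KD, 0.0848 to 0.217 for pre-gRNA in NTC and 0.0866 to 0.329 for pre-gRNA in KD.

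DNAJC1 followed DNAJB6 in standing highest in agoshRNA. It encodes a membrane protein of the endoplasmic reticulum that binds BiP and sits near the ribosome, and it lies on hg19 chromosome 10 from 22045466 to 22292698. It had 35.9, 42.2 and 41.2 CPM in agoshRNA KD libraries and 36.9, 46.4 and 42.8 in agoshRNA NTC libraries, while the other 18 libraries ran from 23.1 through a median of 28.3 to 35.4. All 6 agoshRNA libraries thus lay above the other 18, as they did for 11 of 20172 genes (0.0545%), of which DNAJC1 was the 1 member. Of the other setups, the nearest library was gRNA KD B at 35.4 CPM.

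The test of DNAJC1 was nevertheless passed in 1 comparison. In NTC cells it was higher in agoshRNA than in syn-gRNA by 0.77 on the log2 scale (SE 0.22, adjusted p = 0.0322 by DESeq2), and in KD cells by 0.60 (adjusted p = 0.119). Against gRNA the differences were 0.59 in NTC and 0.54 in KD (unadjusted p = 0.00715 and 0.0143 by DESeq2, adjusted p = 1 in NTC), and against pre-gRNA 0.58 and 0.52 (unadjusted p = 0.00813 and 0.0176). The call was lost with edgeR (adjusted p = 0.137), with only the libraries compared (0.107 by DESeq2), with the arms summed by letter (0.145) and without any library compared other than agoshRNA NTC A, that is without agoshRNA B or C or syn-gRNA A, B or C (0.0782 to 0.254).

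DNAJB5, on hg19 chromosome 9 from 34989638 to 34998897, was lowest in syn-gRNA. Its 6 syn-gRNA libraries had 10.2, 6.00 and 5.18 CPM in KD and 11.1, 6.52 and 6.12 in NTC, and the other 18 libraries ran from 12.3 through a median of 16.5 to 34.9. The agoshRNA libraries spread widest, at 23.3, 13.2 and 34.9 in KD and 21.0, 12.8 and 33.0 in NTC. In both arms library B was the lowest and library C the highest. DNAJB5 was higher in agoshRNA than in syn-gRNA by 1.49 on the log2 scale in NTC (SE 0.39, adjusted p = 0.0157 by DESeq2) and by 1.76 in KD (SE 0.39, adjusted p = 0.00147). Called beside it were 1.84% of genes in NTC, where 2 members passed (DNAJB5 and DNAJC1), and 3.14% in KD, where DNAJB5 alone passed.

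The KD call of DNAJB5 was the 1 member call that edgeR shared (adjusted p = 0.0330, NTC 0.0921), and it held with only the libraries compared (0.0315 by DESeq2, NTC 0.0275) and with the 2 arms summed by letter (log2 difference 1.64, adjusted p = 0.00441 by DESeq2). It was lost without agoshRNA KD library C (adjusted p = 0.0741 by DESeq2) or syn-gRNA KD library C (0.0526). The NTC call was lost without agoshRNA library A or C or syn-gRNA library B or C (0.0648 to 0.232). DNAJB5 was also higher in the plasmid-guide setups than in syn-gRNA, by 0.86 in NTC and 1.09 in KD for gRNA and by 1.05 and 1.12 for pre-gRNA, but these did not pass (adjusted p = 0.332, 0.134, 0.108 and 0.0998 by DESeq2). Under other settings some of these were called. With only the libraries compared, the pre-gRNA difference in NTC passed (adjusted p = 0.0301 by DESeq2), and without syn-gRNA KD library A the pre-gRNA difference in KD did (1.46, adjusted p = 0.0368).

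DNAJA3, a mitochondrial class A member on hg19 chromosome 16 from 4475806 to 4506776, was lowest in syn-gRNA too. It had 72.0, 72.5 and 69.1 CPM in syn-gRNA KD and 71.3, 67.7 and 66.8 in syn-gRNA NTC, against 94.1 to 179 with a median of 111 in the other 18 libraries. Its span overlaps 3 other annotated genes. Between pre-gRNA and syn-gRNA it was higher in pre-gRNA by 0.89 on the log2 scale in NTC (SE 0.27, adjusted p = 0.0394 by DESeq2) and by 0.68 in KD (adjusted p = 0.184). The NTC call was lost with edgeR (adjusted p = 0.118), with only the libraries compared (0.0522 by DESeq2), with the arms summed by letter (0.119) and without pre-gRNA library A or B or syn-gRNA library A, B or C (0.0948 to 0.284). Against agoshRNA, DNAJA3 was lower in syn-gRNA with differences of 0.82 in both arms (adjusted p = 0.0902 in NTC and 0.0663 in KD by DESeq2), and against gRNA with 0.63 and 0.73 (adjusted p = 0.291 and 0.154).

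In the other direction, DNAJC9 stood highest in syn-gRNA. Its libraries there had 86.8, 89.6 and 92.1 CPM in KD and 84.5, 96.2 and 99.6 in NTC, and the other 18 ran from 47.2 through 67.5 to 83.2. No DNAJC9 difference was called, the smallest unadjusted p being 0.0110 for pre-gRNA against syn-gRNA in NTC (log2 difference -0.61, DESeq2). All 6 syn-gRNA libraries stood above the other 18 for 442 genes (2.19%), among them DNAJC9 alone of the members, and below for 267 genes (1.32%), among them DNAJB5 and DNAJA3. For gRNA this held for 0 genes in either direction, and for pre-gRNA for 0 genes above and 1 below, which was no member.

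DNAJA1 was not called between setups, and its agoshRNA libraries spread widely. It had 62.2, 213 and 146 CPM in agoshRNA KD and 87.2, 206 and 163 in agoshRNA NTC, so that library A of each arm fell within the range of gRNA and pre-gRNA (55.4 to 111). The syn-gRNA libraries, at 134 to 156, lay above all 12 of those plasmid-guide libraries. Between agoshRNA and gRNA the log2 difference was 0.96 in NTC and 0.80 in KD (unadjusted p = 0.0164 and 0.0438 by DESeq2, adjusted p = 1 and 0.9999). Between gRNA and syn-gRNA it was -0.92 and -0.76 (adjusted p = 0.300 and 0.392 by DESeq2). With only the libraries compared, DNAJA1 was called lower than in syn-gRNA in the NTC arm of gRNA (-0.93, adjusted p = 0.00536 by DESeq2) and of pre-gRNA (-0.99, adjusted p = 0.0104). DNAJB4, a cytosolic relative of DNAJB1 chosen after its values were seen, had 7.72, 50.7 and 32.9 CPM in agoshRNA KD and 11.8, 40.0 and 32.6 in NTC, against 7.20 to 23.4 over gRNA and pre-gRNA. Its differences of 1.20 and 1.34 from gRNA were not called (unadjusted p = 0.0343 and 0.0183 by DESeq2, adjusted p = 1 and 0.9999).

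**Figure D3:**
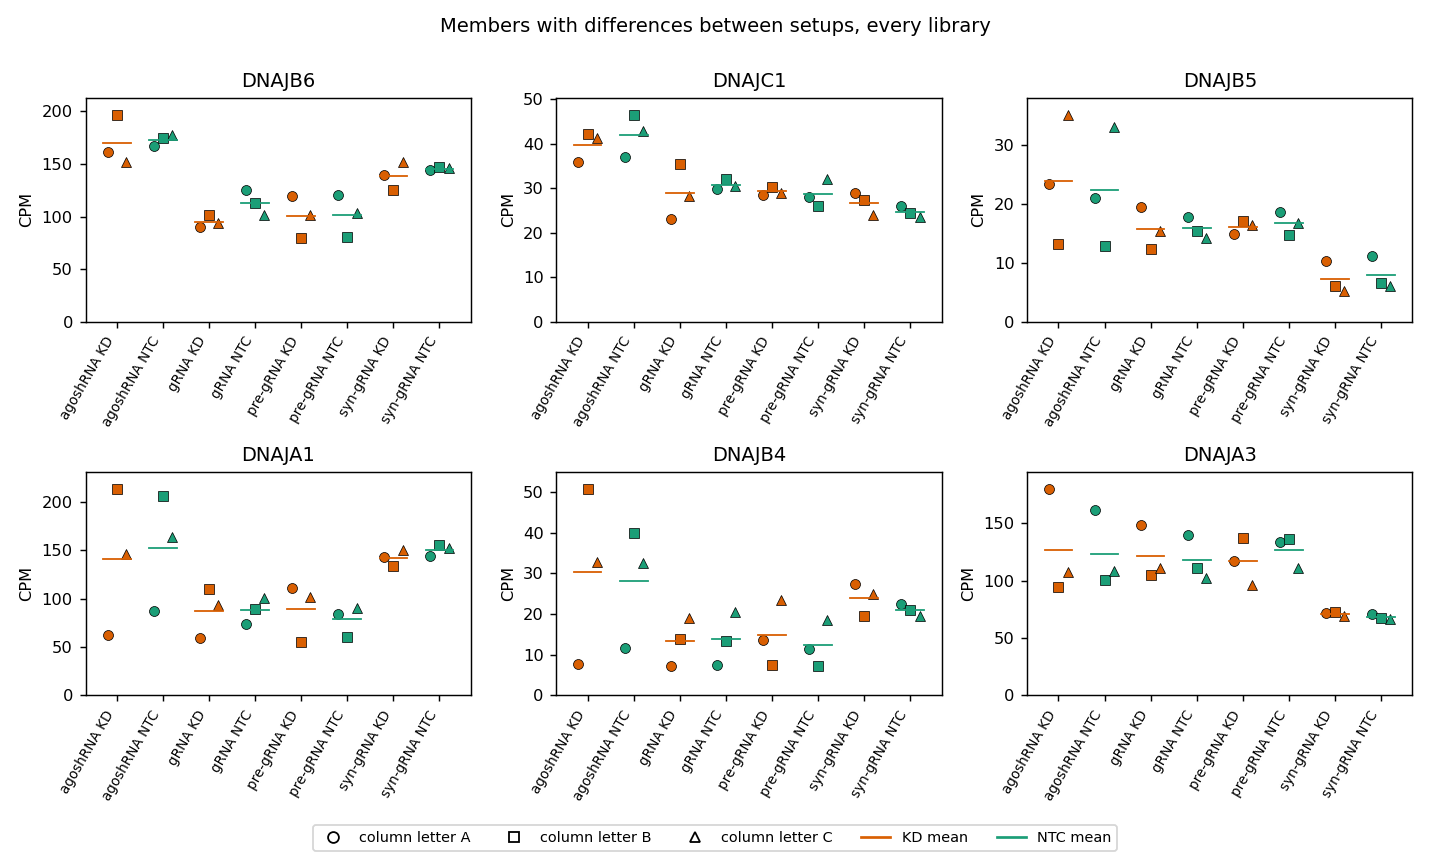
Level in CPM of 6 members in every library, by group, with the column letter as the symbol and the group mean as a line. DNAJB6 and DNAJC1 stand highest in agoshRNA (medians 171 and 41.7 CPM), while DNAJB5 and DNAJA3 stand lowest in syn-gRNA (medians 6.32 and 70.2 CPM).

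Counts of members that differed by setup can be read against all genes. At an unadjusted p under 0.05, 4 members in NTC and 4 in KD differed between agoshRNA and gRNA, beside 1.83% and 1.75% of genes by DESeq2, and 4 and 5 between agoshRNA and pre-gRNA, beside 2.81% and 2.22%. Against syn-gRNA the members numbered 5 and 6 for agoshRNA (12.4% and 15.2% of genes), 7 and 7 for gRNA (11.8% and 13.4%), and 10 and 6 for pre-gRNA (17.8% and 14.8%). Between agoshRNA and each plasmid-guide setup, DNAJB6 and DNAJC1 stood above in both arms and 0 members stood below. The share of genes above was 1.37% in NTC and 0.768% in KD against gRNA, and 1.74% and 0.892% against pre-gRNA. The share of genes below was 4.65% and 1.53% against gRNA, and 1.38% and 1.51% against pre-gRNA. Between gRNA and pre-gRNA 0 members separated in either arm, beside 3.9% of genes in NTC and 1.38% in KD, and DESeq2 called 0 members and 0 genes in either arm (0%). At an unadjusted p under 0.05 that pair had 0 members and 104 (0.516%) and 47 (0.233%) genes, and edgeR called 0 members. Between gRNA and syn-gRNA in NTC, 9 members stood above and 6 below, beside 21.3% and 8.47% of genes. Between pre-gRNA and syn-gRNA in NTC the counts were 7 and 6, beside 17.3% and 11.7%, and between agoshRNA and syn-gRNA 7 and 4, beside 7.8% and 11.1%. In KD, 6 members stood above and 7 below for gRNA and 8 and 3 for pre-gRNA, each beside 16.3% and 9.59% of genes, and 5 and 3 for agoshRNA, beside 6.27% and 9.33%. None of these counts was tested against the shares of all genes.

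By class, the summed level of class B was 51.1 ± 7.79 CPM per kb in agoshRNA KD and 49.1 ± 5.97 in agoshRNA NTC (SD, n = 3), and the other 6 group means lay between 36.2 and 40.5. Single libraries overlapped, since agoshRNA KD reached down to 42.1 and syn-gRNA NTC up to 44.5. Class A sums were 81.5 ± 24.5 and 87.1 ± 19.9 in agoshRNA KD and NTC, 79.8 ± 3.80 and 81.6 ± 2.20 in syn-gRNA, 62.3 ± 10.1 and 64.3 ± 1.68 in gRNA, and 62.6 ± 13.3 and 58.9 ± 8.63 in pre-gRNA (SD, n = 3). Averaged over all libraries, DNAJA1 alone made up 42.6 of the 72.3 CPM per kb of class A. Its share was smaller in some libraries, such as 20.3 of 48.0 in pre-gRNA KD library B. Class C sums differed little between groups, with means from 222 to 236.

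Members also varied with the column letter within a setup. Of 34 members with a mean of at least 50 counts, the letter of the highest library was the same in KD and NTC for 25 in agoshRNA, 27 in gRNA, 27 in pre-gRNA and 19 in syn-gRNA. The median ratio of a member's highest to its lowest KD library was 2.52, 2.04, 2.00 and 1.19 in that order. Between a KD and an NTC library of the same letter the median ratio was 1.16, 1.10, 1.12 and 1.09, and between a KD and an NTC library of different letters it was 1.82, 1.42, 1.54 and 1.12. These counts and ratios were not computed over all genes. Deviations from group means also followed the letter over all genes that averaged at least 50 counts. They correlated at 0.361 to 0.975 between same-letter KD and NTC libraries, and at -0.945 to 0.494 between other pairs. The pattern is thus not shown to be particular to the members.

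DNAJC13, the endosomal protein RME-8, varied most. It had 4.52, 61.2 and 14.6 CPM in agoshRNA KD libraries A, B and C and 4.41, 44.8 and 19.3 in NTC, and in pre-gRNA it had 28.5, 4.90 and 63.3 against 20.9, 5.38 and 55.0. Its highest library was 13.6 times its lowest in agoshRNA KD and 1.70 times in syn-gRNA KD. DNAJC3, the inhibitor P58IPK of the kinase PERK, and DNAJC10, which both work in the endoplasmic reticulum, moved by letter in the same order in agoshRNA, with DNAJC3 at 5.75, 64.5 and 37.9 CPM in KD and DNAJC10 at 14.6, 130 and 47.8.

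DNAJC11 had 81.2, 21.7 and 20.1 CPM in agoshRNA KD and 72.6, 22.2 and 19.2 in NTC. It was highest in library A, where DNAJC13, DNAJC3 and DNAJC10 were lowest in KD, but its own lowest library was C. DNAJC14, a membrane protein of the endoplasmic reticulum, was also highest in library A, at 62.8, 22.7 and 32.5 in KD. DNAJC19, part of the import motor of the mitochondrial inner membrane, was steadiest of all, at 21.6 to 30.6 CPM or 1.42-fold over the 24 libraries. DNAJC13, DNAJC3, DNAJC14 and DNAJC19 were picked after their values had been seen. The GC content of the longest transcript was 37.4% for DNAJC10, 39.9% for DNAJC3 and 41.4% for DNAJC13, against 56.0% for DNAJC11 and 52.0% for DNAJC14.

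Across the 34 members, Spearman's rho between GC content and a library's deviation from its group mean was 0.79 in agoshRNA KD A and -0.80 in agoshRNA KD B, where the 13676 genes that averaged at least 50 counts and had a known GC content gave 0.78 and -0.83. It was -0.81 in pre-gRNA KD C (all genes -0.80). For the syn-gRNA NTC libraries A, B and C it was -0.03, -0.04 and 0.09 (all genes -0.22, 0.12 and 0.23). In the syn-gRNA KD libraries A, B and C it was -0.33, 0.72 and -0.53 (all genes -0.33, 0.67 and -0.42). The sign was the same for members and for all genes in 22 of 24 libraries. Genes are not independent replicates, and the part of GC content in the differences between setups was not tested. DNAJB6 (55.0%) and DNAJB5 (55.5%) are GC-rich, and DNAJC1 and DNAJA3 lie at 51.4% and 52.0%.

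**Figure D4:**
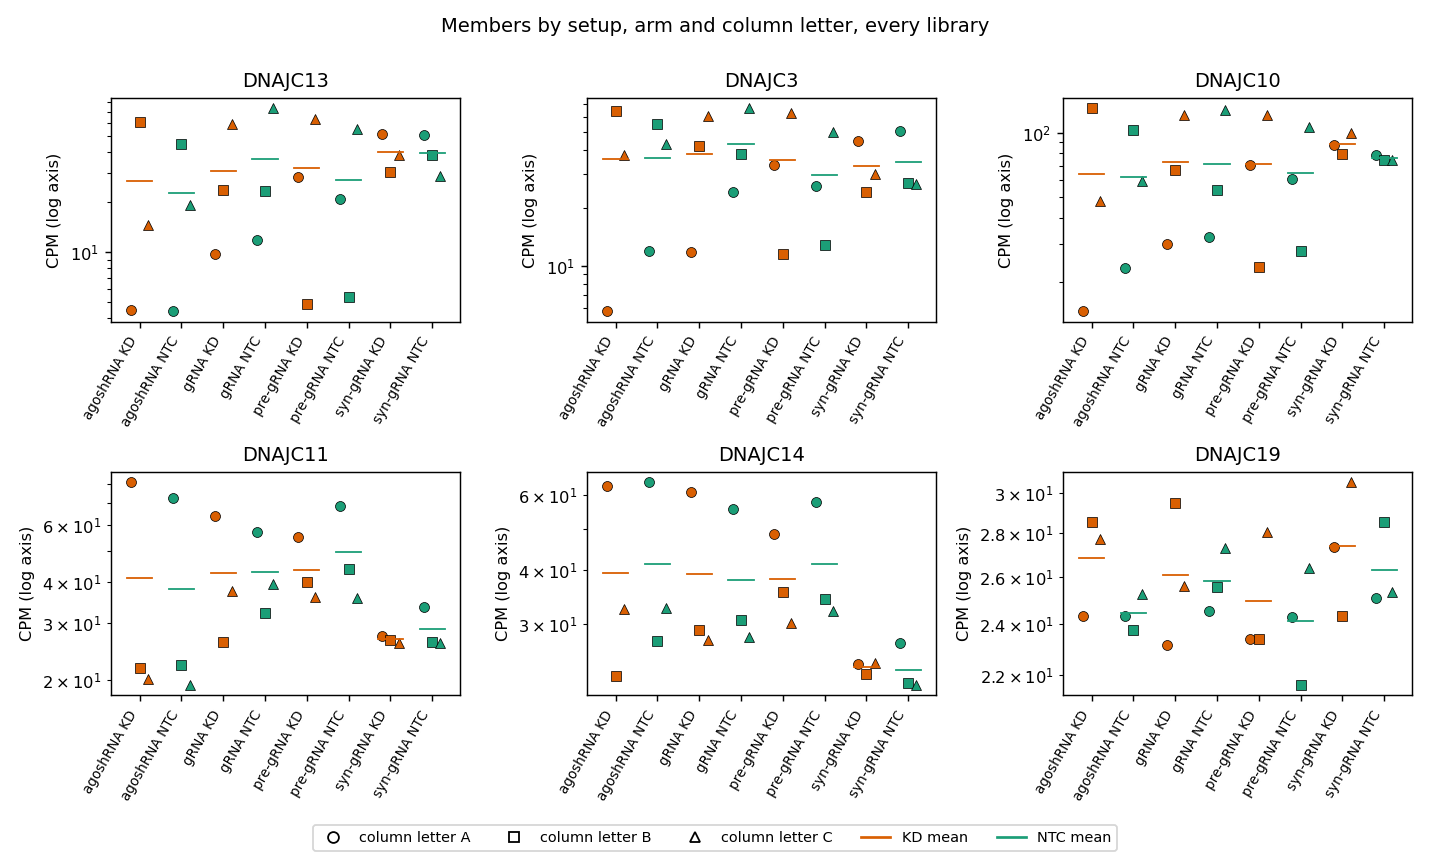
Level in CPM (log axis) of 6 class C members in every library, by group, with the column letter as the symbol and the group mean as a line. DNAJC13, DNAJC3 and DNAJC10 share the order of letters between KD and NTC in agoshRNA, gRNA and pre-gRNA. DNAJC11 is highest in agoshRNA library A, where they are lowest, and DNAJC19 stays between 21.6 and 30.6 CPM.

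With the column letter as a replicate block, KD against NTC still gave 0 member calls in each setup by DESeq2, while the median standard error of a member fell to 0.20 in agoshRNA, 0.22 in gRNA, 0.14 in pre-gRNA and 0.14 in syn-gRNA. Members at an unadjusted p under 0.05 in DESeq2 were then DNAJC18 in agoshRNA (log2 difference -0.38, SE 0.19), DNAJC21 in pre-gRNA (0.25), and DNAJC10 (0.21) and DNAJC2 (0.20) in syn-gRNA. Their unadjusted p-values in this model across all genes lay between 0.0415 and 0.0474. DNAJC21 was chosen after its values were seen. The shares of all genes at that p were 0.59% in agoshRNA, 0.615% in gRNA, 5.4% in pre-gRNA and 1.3% in syn-gRNA. For the difference of the KD effect, the model with the letter as a block called 0 members and 0 genes in each pair. At an unadjusted p under 0.05 by DESeq2 it found 0 members for agoshRNA against gRNA (0.744% of genes). It found 3 for agoshRNA against pre-gRNA (5.29%) and 2 against syn-gRNA (1.87%). For gRNA it found 2 against pre-gRNA (9.12%) and 1 against syn-gRNA (2.88%), and for pre-gRNA 1 against syn-gRNA (0.55%).

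The partners of the J-domain proteins were listed by role. Of 15 tested HSP70-family genes, DESeq2 called HSPA6, a strictly inducible HSP70, higher in agoshRNA than in each other setup in both arms, and lower in gRNA and pre-gRNA than in syn-gRNA in both arms. HSPA6 held 408 to 547 counts in agoshRNA libraries, 18 to 127 in syn-gRNA and 0 to 12 in gRNA and pre-gRNA. HSPA8, the constitutive HSC70, was called lower than in syn-gRNA in pre-gRNA (log2 difference -1.26, adjusted p = 0.00973 in NTC, and -1.22, 0.0148 in KD, by DESeq2) and in the KD arm of gRNA (-1.16, adjusted p = 0.0324). HSPA8 and DNAJA1 were thus both lower in the plasmid-guide setups than in syn-gRNA by their estimates, though DNAJA1 was not called.

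Of 10 nucleotide exchange factors, BAG3, which links HSP70 clients to autophagy, was called higher in agoshRNA than in syn-gRNA (1.27 in NTC, adjusted p = 0.0486, and 1.53 in KD, 0.00679, by DESeq2). GRPEL1, the mitochondrial exchange factor, was called higher in pre-gRNA than in syn-gRNA (0.57, adjusted p = 0.0371, and 0.59, 0.0356), the comparison in which its mitochondrial J-domain counterpart DNAJA3 was called in NTC. Of 10 genes of the HSP90 list, STIP1, which joins HSP70 and HSP90, was called higher in agoshRNA than in syn-gRNA (0.90, adjusted p = 0.0443, and 0.96, 0.0180 by DESeq2). For KD against NTC, DESeq2 called 0 genes of these 3 lists in each setup. The background is that of the comparisons above, with 3.14% of genes called between agoshRNA and syn-gRNA in KD. The checks given for the member calls, such as edgeR or leaving out a library, are not given for the calls in these 3 lists. Most member calls were lost with edgeR, and whether the calls in these lists hold under such settings is not shown here.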

How the data were processed

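Raw read counts per gene in 24 libraries were read from the authors' 4 deposited tables, in which they were identical. Per the submitters' processing notes, Trim Galore, STAR 2.7.3a, featureCounts and DESeq2 were used with hg19; settings are not given in the sources used here. The authors' log2 fold changes and p-values per setup were deposited beside the counts, and 24 columns of normalized counts per table were not used. Exon lengths and positions are the tables' own.

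CPM are counts scaled to a library total of 1000000, and CPM per kb divides by exon length. DESeq2 1.42.0 (R 4.3.3) gave Wald tests over the genes that reached 10 counts in 3 or more libraries, fitted on 6 libraries for KD against NTC and on 24 with 1 coefficient per group otherwise, called at a Benjamini-Hochberg adjusted p under 0.05. Scripts were tested on simulated counts. Alternatives were edgeR 4.0.16 with TMM factors, TMM in DESeq2, other filters (none, or 50 counts), other sets of libraries, the letter as a block, arms summed by letter, and leaving out each library. GC content came from GENCODE transcripts and promoters from RefSeq.

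Columns carry letters A to C, which nothing links to the labels' replicate numbers; libraries are named by setup, arm and letter. Deviations from group means correlated at 0.361 to 0.975 over the 12 same-letter pairs of KD and NTC libraries, and at -0.945 to 0.494 over the 24 other pairs. The letters were therefore taken as pairs, though the labels do not state this and the ranges overlap. In syn-gRNA the same-letter pairs B and C gave 0.451 and 0.361, beside 0.434 for KD B with NTC C.

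Members and lists were chosen with earlier results of these data known. Members were given with values if called in any test, if among the 3 highest of a class per kb, if among the 2 with the smallest p for KD against NTC in a setup, or if KD and NTC did not overlap with 1 sign in at least 2 setups; pathway genes if called, at most the 6 highest.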

Additional observations from a re-analysis of the deposited data

How the results depend on the processing

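KD against NTC gave 0 called members in each setup under every alternative run, including leaving out each library (0 to 0). The labels' replicate numbers could not be linked to columns, so the pairing used the column letter. With it as a replicate block the count was also 0 in each setup, and the estimate of DNAJB6 in agoshRNA turned from 0.01 to -0.003. The estimate of DNAJC1 in gRNA turned from -0.00 to 0.001 with all 24 libraries in the fit and to 0.001 with no filter on low counts. Between setups, edgeR called 0 members for agoshRNA against gRNA and pre-gRNA in both arms, for agoshRNA against syn-gRNA in NTC, for gRNA against syn-gRNA in KD and for pre-gRNA against syn-gRNA in both arms. With only the libraries compared, 0 were called for agoshRNA against gRNA and pre-gRNA in both arms and for gRNA and pre-gRNA against syn-gRNA in KD, and 1 each for agoshRNA and gRNA against syn-gRNA in NTC. With both arms summed by letter, 0 were called for agoshRNA against gRNA and pre-gRNA, for gRNA against syn-gRNA as compared with the KD count, and for pre-gRNA against syn-gRNA, and 1 for agoshRNA against syn-gRNA as compared with the NTC count. TMM factors in DESeq2 left each count within 1.5 times.

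Leaving out 1 library gave counts of 0 to 1 for agoshRNA against gRNA in NTC and 1 to 1 in KD, 0 to 1 for agoshRNA against pre-gRNA in both arms, 0 to 1 for agoshRNA against syn-gRNA in NTC and 0 to 5 in KD, 0 to 1 for gRNA against syn-gRNA in KD, and 0 to 1 for pre-gRNA against syn-gRNA in both arms. The 5 were DNAJB5, DNAJB12, DNAJC15, DNAJA3 and DNAJC5, without agoshRNA KD library B. Of these, DNAJC15 is a low gene with 1 to 14 counts, and it reached 10 counts in 5 of the 24 libraries. The KD effects of single members changed sign in some of these fits, none of them called: DNAJB6 ran from -0.188 to 0.12 in agoshRNA and -0.104 to 0.008 in pre-gRNA, DNAJB5 from -0.278 to 0.542, -0.133 to 0.253, -0.233 to 0.073 and -0.463 to 0.123 in agoshRNA, gRNA, pre-gRNA and syn-gRNA, DNAJC1 from -0.188 to 0.095, -0.174 to 0.106 and -0.139 to 0.111 in the first 3, and DNAJA3 from -0.153 to 0.228, -0.059 to 0.261 and -0.42 to 0.083. Genes called by edgeR numbered 3 and 2 for agoshRNA against gRNA, 2 and 2 against pre-gRNA, 16 and 192 against syn-gRNA, 38 for gRNA against syn-gRNA in KD and 149 and 183 for pre-gRNA against syn-gRNA, NTC first.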
